A study of Mus musculus with 2 samples.

Results

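The MHC class I presentation genes were followed across the cells of irradiated and non-irradiated MC38 tumors. The 10 members were taken by gene symbol from the 32285 genes counted in each library, and all 10 were found: the class I heavy chains H2-K1 and H2-D1, their light chain B2m, the peptide transporter genes Tap1 and Tap2, tapasin (Tapbp), the immunoproteasome subunits Psmb8, Psmb9 and Psmb10, and the class I transactivator Nlrc5. MC38 is a mouse colon carcinoma line, grown here as tumors in wild-type (WT) mice. The Control library came from tumors without irradiation, and the IR library from tumors collected 4 days after a single local dose of 20 Gy. Several tumors were pooled into each library, and CD45+ cells were sorted for 3′ single-cell RNA-seq. The sample labels also name a CD45+CD11b+Ly6Chi cell type, but both libraries also held T cells, NK cells and dendritic cells, and the study's methods give a CD45+ sort for them. With 1 library per group there was no replicate and no test. All intervals below are exact 95% intervals that cover counting error only.

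MHC class I molecules carry peptides from inside the cell to its surface, where CD8 T cells read them, while NK cells sense the level of class I itself. The peptides are cut by the proteasome. Under interferon its constitutive catalytic subunits are replaced by the immunoproteasome subunits encoded by Psmb8, Psmb9 and Psmb10, which favors peptides that fit class I. TAP1 and TAP2 pump the peptides into the endoplasmic reticulum, and tapasin holds the empty heavy chain beside the transporter. NLRC5 drives transcription of the class I heavy chain genes and of some other genes of this set.

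Barcodes with at least 1000 UMIs and at most 25% mitochondrial UMIs were kept as cells, 4679 in Control and 3411 in IR, with a median of 7302 and 8266 UMIs. They were assigned to 8 gates by marker genes that include no member. The monocyte gate (Ly6c2, Plac8, Ccr2 and others) held 579 Control and 999 IR cells, and the macrophage gate (C1qa, C1qb, C1qc and others) 2123 and 485. Cells entered both gates by macrophage markers plus Csf1r, Fcgr1 and Ms4a6c, and the monocyte markers only split them. The T cell gate held 416 and 251 cells, the NK cell gate 305 and 372, and the dendritic cell gate 175 and 191. The neutrophil gate (31 and 160 cells) and the basophil or mast cell gate (30 and 57 cells) were small. A gate of 97 and 103 cells expressed collagen genes and held almost no Ptprc, which encodes CD45, at 10.8 and 2.31 CPM (counts scaled to the gate's total UMIs), so by its markers it was not of leukocytes in spite of the sort. Monocytes and macrophages form a range: 65 and 67 cells of the monocyte gate and 126 and 83 of the macrophage gate lay within 1.5-fold of the line between them. The monocyte markers include Ly6c2, Plac8 and Ms4a4c, which are interferon-induced. Without these genes the monocyte gate held 401 Control and 558 IR cells, and the macrophage gate 2301 and 926, so many IR cells changed gate. Barcodes with markers of several classes, 587 and 504, were left out as possible doublets. Of the cell barcodes, 6 occurred in both libraries.

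Of the members, 7 lie on chromosome 17 within 1352 kb, from Tapbp (chr17:33915899-33929292) to H2-D1 (chr17:35262730-35267499), in the GENCODE annotation of build GRCm38. Psmb9, Tap1, Psmb8 and Tap2 are neighbors in a block of 34.3 kb (chr17:34181987-34216321), and Psmb9 and Tap1, on opposite strands, overlap by 0.212 kb. H2-K1 lies at chr17:33996017-34000347, B2m at chr2:122147686-122153083, Psmb10 at chr8:105935735-105938444 and Nlrc5 at chr8:94434356-94527272. Promoter windows, 250 bases before to 50 after the RefSeq gene start (GRCm38.p6), were at hand for 8 of the 10 members, all but Tap2 and Nlrc5. They are shown for the heavy chains and the light chain, whose levels open the results, for Psmb8, and for the start region that Tap1 and Psmb9 share. The windows are chr17:34000298-34000597 for H2-K1 (minus strand) and, on the plus strand, chr17:35262844-35263143 for H2-D1, chr2:122147437-122147736 for B2m, chr17:34187306-34187605 for Tap1 and chr17:34197945-34198244 for Psmb8. Each is written 5′ to 3′ along its gene's strand, with capitals for bases that match 1 of 3 interferon-related motifs read on both strands: GAAA followed by any 2 bases and GAAA again (ISRE, the core of an interferon-stimulated response element), AANNGAAA (an IRF site) or TTCNNNGAA (a GAS site).
H2-K1: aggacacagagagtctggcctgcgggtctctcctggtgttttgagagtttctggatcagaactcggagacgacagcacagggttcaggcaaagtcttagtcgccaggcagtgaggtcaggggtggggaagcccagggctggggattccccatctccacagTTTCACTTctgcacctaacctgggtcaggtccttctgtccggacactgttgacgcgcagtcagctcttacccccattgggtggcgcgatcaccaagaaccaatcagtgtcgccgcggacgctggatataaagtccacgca
H2-D1: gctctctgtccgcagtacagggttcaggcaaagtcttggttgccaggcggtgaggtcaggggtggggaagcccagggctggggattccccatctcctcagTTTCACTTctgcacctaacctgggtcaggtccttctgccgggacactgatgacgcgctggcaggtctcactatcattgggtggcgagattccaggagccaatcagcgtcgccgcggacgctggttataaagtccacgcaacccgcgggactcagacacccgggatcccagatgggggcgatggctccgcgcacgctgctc
B2m: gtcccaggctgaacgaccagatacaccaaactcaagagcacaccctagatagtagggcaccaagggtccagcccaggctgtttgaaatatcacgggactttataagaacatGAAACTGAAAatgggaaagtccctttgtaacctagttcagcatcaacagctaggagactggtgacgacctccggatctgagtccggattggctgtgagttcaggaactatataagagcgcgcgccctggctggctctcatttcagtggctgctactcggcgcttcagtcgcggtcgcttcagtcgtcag
Tap1: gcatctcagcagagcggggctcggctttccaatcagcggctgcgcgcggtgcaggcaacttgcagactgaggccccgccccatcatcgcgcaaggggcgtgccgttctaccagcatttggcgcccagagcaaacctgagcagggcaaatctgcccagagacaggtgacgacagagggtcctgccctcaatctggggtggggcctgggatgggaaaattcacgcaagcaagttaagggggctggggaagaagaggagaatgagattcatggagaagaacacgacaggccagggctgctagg
Psmb8: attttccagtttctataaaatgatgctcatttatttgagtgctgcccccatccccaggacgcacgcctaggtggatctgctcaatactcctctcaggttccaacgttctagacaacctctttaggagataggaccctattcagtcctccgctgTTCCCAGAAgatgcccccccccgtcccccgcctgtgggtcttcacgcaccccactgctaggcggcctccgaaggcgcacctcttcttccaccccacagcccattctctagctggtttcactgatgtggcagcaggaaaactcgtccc
In the B2m window the ISRE core began 139 bases before the start, and the AANNGAAA match there lies inside it. AANNGAAA began 90 bases before the start in H2-K1 and 150 bases before it in H2-D1. TTCNNNGAA began 97 bases before the start in Psmb8. These distances are from the RefSeq starts only: the H2-D1 and Psmb8 windows lie wholly inside the GENCODE bounds of their genes. Of the 27025 mouse promoter windows of the same length, 3.49% held the ISRE core, 24.2% AANNGAAA and 8.47% TTCNNNGAA, and a match describes the letters only. The Tap1 window held none of the 3 motifs. The H2-K1 and H2-D1 windows shared an unbroken run of 47 bases. The heavy chain genes are also alike in their transcripts, so reads could have been assigned to the wrong member of the family, and H2-K1 and H2-D1 values carry that uncertainty.

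Class I genes were higher in IR in most gates, by modest amounts. A member is called higher or lower below where the intervals of its 2 levels, in CPM of the gate's summed UMIs, did not overlap. Over the 7 larger gates (all but basophil or mast cells) this gave 70 pairs of member and gate, of which 46 were higher in IR, 4 were lower and 20 overlapped. The members higher were 8 of 10 in monocytes (all genes with enough UMIs: 8.24%), 9 of 10 in macrophages (10.9%), 9 of 10 in T cells (5.92%), 8 of 10 in dendritic cells (7.08%) and 8 of 10 in collagen-expressing cells (6.08%). Of all genes, 8.77%, 14.9%, 4.27%, 5.31% and 6.86% were lower in these gates in the same order, against 0 members. Separate intervals are easier to reach with more UMIs, and the shares of all genes include genes with as few as 20 UMIs, so abundance is part of this contrast. Of the 11 noncatalytic proteasome core subunits, 1 was higher in monocytes, 5 in macrophages, 4 in T cells, 4 in dendritic cells and 7 in collagen-expressing cells. NK cells and neutrophils had fewer members higher: 3 members were higher (5.32%) and 1 lower (7.05%) in NK cells, and 1 was higher (17.2%) and 3 were lower (22.3%) in neutrophils. In the basophil or mast cell gate 7 members had at least 20 UMIs, of which 2 were higher (4.46%) and 0 lower (3.73%). The median log2 ratio of IR over Control over the members was 0.32 in monocytes (all genes -0.04), 0.28 in macrophages (-0.07), 0.28 in T cells (-0.02), 0.33 in dendritic cells (0.01) and 0.56 in collagen-expressing cells (-0.04). It was -0.04 in NK cells (all genes -0.06) and -0.16 in neutrophils (-0.01), and 0.40 over the 7 members in basophils or mast cells (0.05). The macrophage median was 0.44 when interferon-induced genes were left out of the monocyte markers, and the neutrophil median turned positive, at 0.54, with another scaling of the totals.

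Few of these ratios were large. Members with non-overlapping intervals that also differed at least 1.5-fold were H2-D1 in macrophages (all genes higher by this rule: 4.63%), H2-D1, Tap1, Tapbp and Psmb8 in collagen-expressing cells (3.14%), H2-D1 in basophils or mast cells (3.55%), and, lower in IR, Psmb8, Psmb9 and Psmb10 in neutrophils (22.1%). No member reached that fold in monocytes (all genes higher 3.8%), T cells (3.25%), NK cells (2.33%) or dendritic cells (3.97%). Outside neutrophils no member was lower by this rule, where all genes gave 2.72% in monocytes, 6.38% in macrophages, 1.88% in T cells, 3.23% in NK cells, 2.92% in dendritic cells, 2.59% in basophils or mast cells and 3.67% in collagen-expressing cells.

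**Figure D1:**
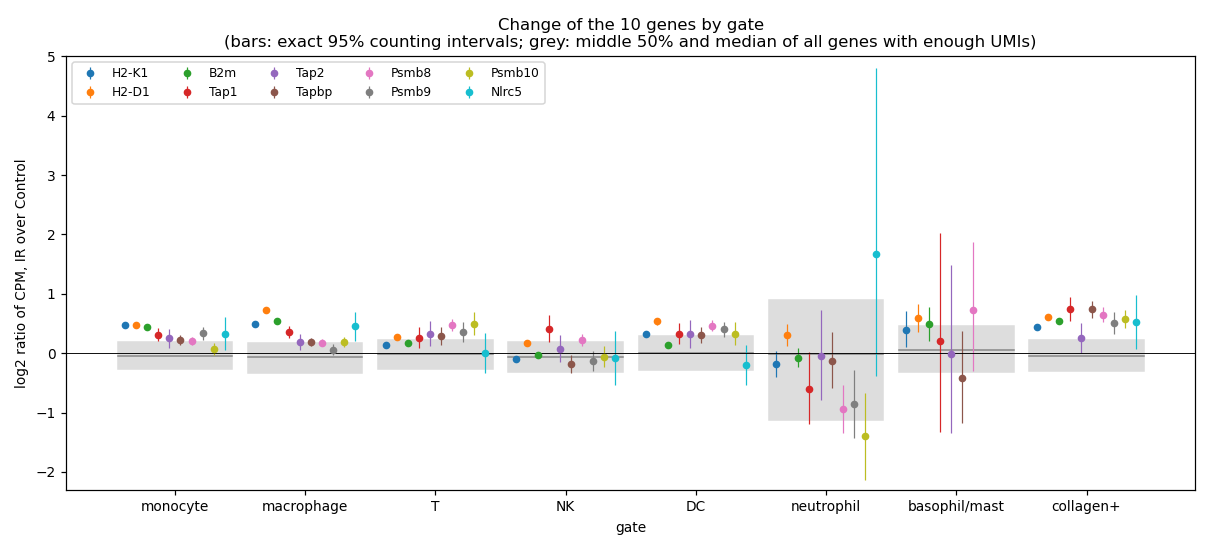
Log2 ratio of IR over Control for each member in each gate; points are the ratios of CPM, bars the exact 95% intervals (counting error only), and grey marks the middle 50% and the median of all genes with enough UMIs in that gate. Most points lie above 0 in most gates and on either side of 0 in NK cells, and Psmb8, Psmb9 and Psmb10 lie below 0 in neutrophils (-0.94, -0.86 and -1.40).

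H2-D1 encodes a classical heavy chain, and it was the only member whose level was higher in IR in all 8 gates. In monocytes it was at 1997 CPM (1952 to 2043) for Control against 2782 CPM (2748 to 2816) for IR, a log2 ratio of 0.48 (0.44 to 0.52). In macrophages it was at 1668 CPM (1649.6 to 1686) for Control against 2767 CPM (2722 to 2812) for IR, a log2 ratio of 0.73 (0.70 to 0.76), the highest of the 10 members there. These were the gates with the lowest H2-D1 in Control. In the macrophage gate monocyte markers summed to 964 CPM for Control against 1679 CPM for IR, and macrophage markers to 8699 against 6876 CPM, and their part in the macrophage values was not tested. T cells held 2619 and 3165 CPM in Control and IR (log2 ratio 0.27), dendritic cells 2554 and 3704 CPM (0.54) and NK cells 2408 and 2709 CPM (0.17). Neutrophils held 2272 and 2806 CPM (0.30), basophils or mast cells 2259.6 and 3404 CPM (0.59), and collagen-expressing cells 2153 and 3287 CPM (0.61). The order of the gates was thus not the same in the libraries: T cells were highest and macrophages lowest in Control, while dendritic cells were highest and NK cells lowest in IR. Neighbors in that order often overlapped: T cells and dendritic cells in Control, and in IR dendritic cells, basophils or mast cells, collagen-expressing cells and T cells each with the next, as did neutrophils, monocytes, macrophages and NK cells. Of the 1281 genes with enough UMIs in every gate, 7 (0.546%) were higher in IR in all 8 gates. Beside H2-D1 these were the interferon-induced genes Isg15, Irf7 and Ifi27l2a, the surface protein gene Ly6a, the cytokine feedback inhibitor Socs3 and the nuclear RNA Malat1, named here because they met that count.

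H2-K1, the other classical heavy chain of these mice, was higher in 5 of the 8 gates and lower in 1. Monocytes held 1636 CPM (1595 to 1677) for Control against 2278 CPM (2247 to 2309) for IR, a log2 ratio of 0.48 (0.44 to 0.52), and macrophages 1814 and 2549 CPM (0.49, interval 0.46 to 0.52). Dendritic cells held 2752 and 3447 CPM (0.32, interval 0.27 to 0.38) and collagen-expressing cells 2219 and 3027 CPM (0.45, interval 0.40 to 0.50). T cells had the highest H2-K1 of any gate in both libraries, at 3349 and 3673 CPM, and the smallest of the higher ratios, 0.13 (0.09 to 0.18). NK cells held 3037 CPM (2968 to 3108) for Control against 2848 CPM (2796 to 2901) for IR, a log2 ratio of -0.09 (-0.14 to -0.05). That was the only lower heavy chain value with separate intervals, and its ratio ran from -0.15 to 0.12 over the settings tried. In basophils or mast cells (1412 and 1859.9 CPM) and neutrophils (1779.9 and 1565 CPM) the intervals overlapped. In the order of gates, T cells, NK cells, dendritic cells, collagen-expressing cells and macrophages stood apart from each other in Control, and only the lowest pair, basophils or mast cells and neutrophils, overlapped in IR.

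Within a gate, the ratio of H2-D1 to H2-K1 UMIs does not depend on the gate's total. In NK cells it was 0.793 (0.766 to 0.821) for Control against 0.951 (0.926 to 0.977) for IR, in macrophages 0.919 (0.906 to 0.933) for Control against 1.09 (1.06 to 1.11) for IR, and in dendritic cells 0.928 (0.887 to 0.971) for Control against 1.07 (1.04 to 1.11) for IR. T cells (0.782 and 0.862), neutrophils (1.28 and 1.79) and collagen-expressing cells (0.9702 and 1.09) also had a higher ratio in IR with separate intervals. The log2 difference between the libraries was 0.24 in macrophages, 0.14 in T cells, 0.26 in NK cells, 0.21 in dendritic cells, 0.49 in neutrophils and 0.16 in collagen-expressing cells, and it stayed above 0 in these 6 gates in every setting tried. Monocytes were the exception, with 1.22 (1.18 to 1.26) for Control against 1.22 (1.199 to 1.24) for IR, and there the heavy chains were higher in IR by the same factor. In basophils or mast cells (1.60 and 1.83) the intervals overlapped.

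**Figure D2:**
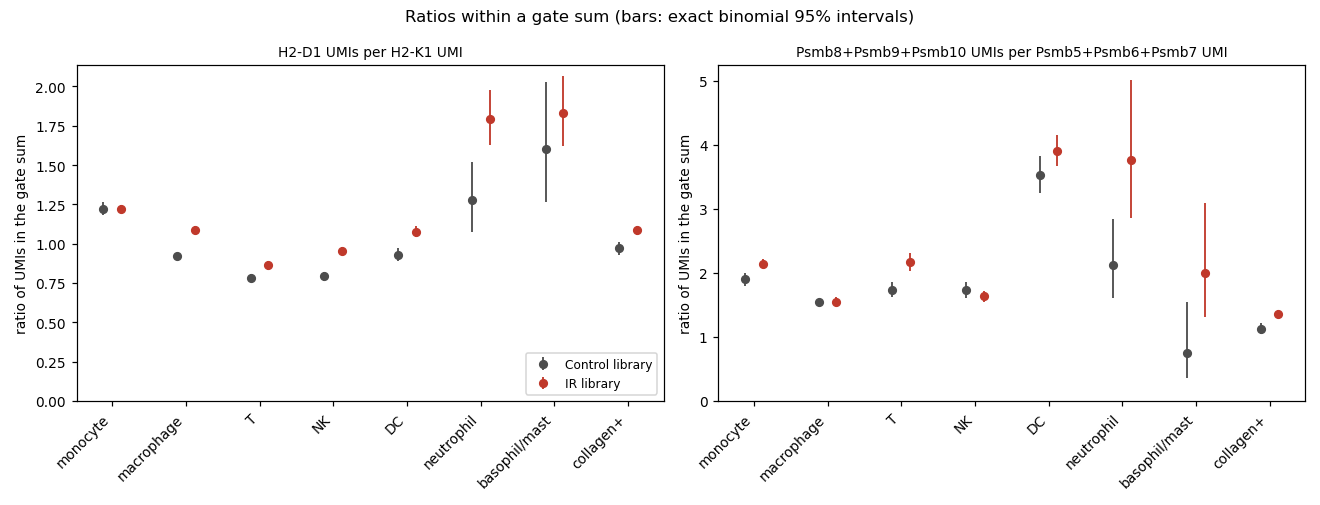
Ratios of UMIs within each gate in Control and IR: H2-D1 to H2-K1, and the immunoproteasome subunits Psmb8, Psmb9 and Psmb10 to their constitutive counterparts Psmb5, Psmb6 and Psmb7; bars are exact 95% intervals from counting error. The H2-D1 to H2-K1 ratio is higher in IR in 6 gates with separate intervals and equal in monocytes, and dendritic cells have the highest immunoproteasome ratio in Control.

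B2m, the light chain that every class I heavy chain needs to reach the surface, was higher in 6 of the 8 gates. It was at 3412 CPM (3353 to 3472) for Control against 4607 CPM (4564 to 4651) for IR in monocytes, a log2 ratio of 0.43 (0.40 to 0.46), and at 3453 CPM (3427 to 3479) for Control against 5042 CPM (4982 to 5103) for IR in macrophages, a log2 ratio of 0.55 (0.53 to 0.57). T cells held 3529 and 3979 CPM (0.17), dendritic cells 4063 and 4479 CPM (0.14), collagen-expressing cells 2698 and 3937 CPM (0.55) and basophils or mast cells 1553 and 2180.4 CPM (0.49). Dendritic cells had the highest B2m of all gates in Control and macrophages in IR, and basophils or mast cells the lowest in both. T cells, macrophages, monocytes, NK cells and neutrophils each overlapped with the next in Control. In NK cells (3332 and 3265 CPM) and neutrophils (3234 and 3074 CPM) the intervals overlapped.

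**Figure D3:**
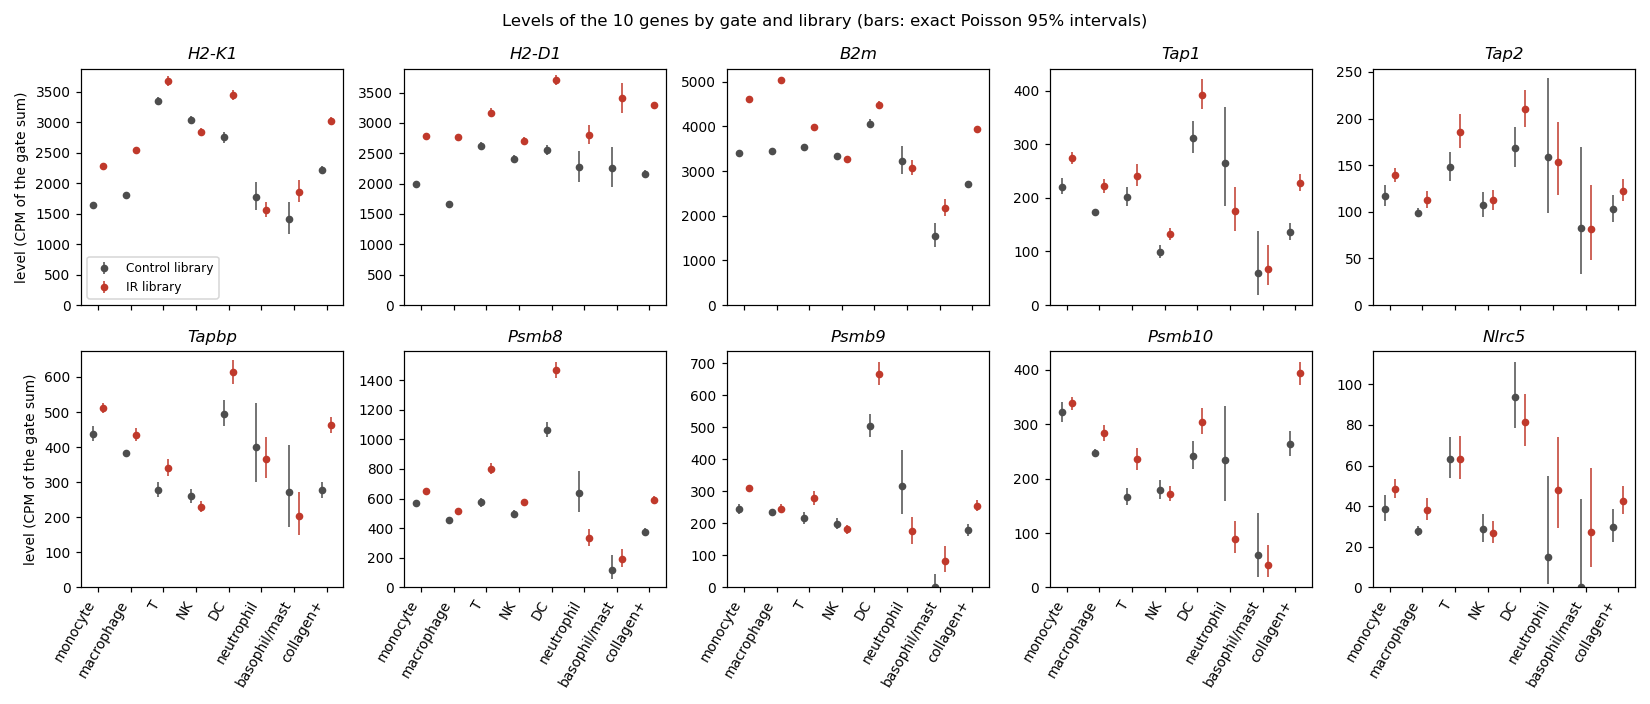
Level of each member (CPM of the gate's summed UMIs, 1 panel a gene) in the 8 gates for Control and IR, with exact 95% intervals from counting error. T cells are highest for H2-K1 in both libraries, and dendritic cells for Tap1, Tap2, Tapbp, Psmb8, Psmb9 and Nlrc5 in both.

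The transporter and tapasin genes were highest in dendritic cells in both libraries, and higher in IR there for Tap1 and Tapbp. In Control the dendritic cell interval overlapped that of neutrophils for Tap1 and Tap2 and that of monocytes for Tapbp, and in IR that of T cells for Tap2. Dendritic cells held 312 and 393 CPM of Tap1, a log2 ratio of 0.33 (0.16 to 0.50), and 495 and 614 CPM of Tapbp, a log2 ratio of 0.31 (0.17 to 0.44). Their Tap2 level of 169 and 210.1 CPM gave overlapping intervals. Tap1 was higher in 6 of the 8 gates. It was at 221 and 274 CPM in monocytes (0.31, interval 0.20 to 0.43), at 173 and 222 CPM in macrophages (0.36, interval 0.26 to 0.46), at 201 and 241 CPM in T cells (0.26, interval 0.08 to 0.44) and at 99.2 and 132 CPM in NK cells (0.41, interval 0.19 to 0.64). The largest Tap1 ratio was in collagen-expressing cells, 136 CPM (121 to 154) for Control against 227 CPM (212 to 244) for IR, a log2 ratio of 0.74 (0.53 to 0.94). In neutrophils Tap1 was at 265 and 175 CPM, with overlapping intervals. In NK cells Tap1 was thus higher while H2-K1 was lower in the summed counts. Over the settings tried the NK cell ratio ran from 0.38 to 0.74 for Tap1 and from -0.15 to 0.12 for H2-K1, so the H2-K1 sign was not kept.

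Tap2 was higher in 3 gates, at 117 and 139 CPM in monocytes (0.25, interval 0.09 to 0.41), 99.1 and 113 CPM in macrophages (0.19, interval 0.05 to 0.32) and 148 and 186 CPM in T cells (0.33, interval 0.12 to 0.54). Tap1 and Tap2 proteins work as a pair, and their UMI ratio differed between the libraries with separate intervals in collagen-expressing cells, at 1.32 (1.098 to 1.597) for Control against 1.85 (1.64 to 2.09) for IR. Tapbp was higher in 5 gates. The levels were 438 and 511 CPM in monocytes, 383 and 435 CPM in macrophages, 279 and 341 CPM in T cells and 277 and 462 CPM in collagen-expressing cells, where its log2 ratio was 0.74 (0.59 to 0.88). In NK cells Tapbp was at 260.2 and 230.2 CPM, a log2 ratio of -0.18 (-0.33 to -0.03), with overlapping intervals of the levels.

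Immunoproteasome subunits were highest in dendritic cells for Psmb8 and Psmb9 and in monocytes (Control) or collagen-expressing cells (IR) for Psmb10, in each case without overlap with the next gate. Psmb8 was at 1065 CPM (1012 to 1119.6) for Control against 1469 CPM (1416 to 1522) for IR in dendritic cells, a log2 ratio of 0.46 (0.37 to 0.55). T cells held 575 and 802 CPM (0.48, interval 0.38 to 0.58), collagen-expressing cells 376 and 589 CPM (0.65, interval 0.52 to 0.77) and NK cells 495 and 575 CPM (0.22, interval 0.12 to 0.32). The ratios were smaller in monocytes, at 568 and 654 CPM (0.20), and in macrophages, at 453 and 513 CPM (0.18). Psmb8 was thus higher in 6 gates, and it was lower only in neutrophils. The collagen-expressing gate had a median of 17250 UMIs per cell in Control and 31072 in IR. With its cells thinned to 1000 UMIs, Psmb8, Psmb9 and Psmb10 together had a mean of 0.887 and 0.903 UMIs per cell. These means rest on few UMIs and are given without an interval. In the setting with thinned cells the median log2 ratio of the members in this gate was 0.58. Over the settings tried the gate's ratio ran from 0.48 to 1.09 for Psmb8, 0.35 to 0.57 for Psmb9 and 0.15 to 0.63 for Psmb10.

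Psmb9 was higher in monocytes (246 and 310.0 CPM), T cells (218 and 279.5 CPM), dendritic cells (505 and 667 CPM) and collagen-expressing cells (179 and 255 CPM). In macrophages (237 and 246 CPM) and NK cells (199 and 182 CPM) its intervals overlapped. Psmb10 was higher in macrophages (248 and 283 CPM), T cells (167 and 235 CPM), dendritic cells (242 and 305 CPM) and collagen-expressing cells (263 and 393 CPM), and overlapped in monocytes (321 and 338 CPM) and NK cells (179.5 and 172 CPM). T cells had the largest ratio for Psmb10 among the leukocyte gates, 0.50 (0.31 to 0.69), although they had a low Psmb10 level in Control. In the T cell gate monocyte markers, which include the interferon-induced Ly6c2, Plac8 and Ms4a4c, were also higher in IR, from 1273 to 2267 CPM. Macrophage markers were lower there, at 135 and 86.3 CPM, and the phagocyte markers Csf1r, Fcgr1 and Ms4a6c were at 59.4 and 153 CPM. The part of these genes in the T cell values was not tested.

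Psmb8, Psmb9 and Psmb10 replace Psmb5, Psmb6 and Psmb7 in the catalytic core. The UMI ratio of the immunoproteasome subunits to these counterparts was 1.73 (1.62 to 1.85) for Control against 2.17 (2.03 to 2.31) for IR in T cells, 1.897 (1.802 to 1.997) for Control against 2.14 (2.07 to 2.21) for IR in monocytes and 1.13 (1.05 to 1.21) for Control against 1.35 (1.29 to 1.42) for IR in collagen-expressing cells, with separate intervals in each. In macrophages the ratio was 1.54 (1.502 to 1.57) for Control against 1.55 (1.49 to 1.62) for IR, and in NK cells 1.73 (1.61 to 1.86) for Control against 1.63 (1.55 to 1.72) for IR, so the intervals overlapped in both. Dendritic cells had 3.52 (3.24 to 3.82) for Control against 3.895 (3.66 to 4.15) for IR, the highest Control ratio of all gates, also with overlapping intervals. The log2 difference of this ratio in macrophages was 0.01, and it was 0.21 when interferon-induced genes were left out of the monocyte markers and ran down to -0.11 with cells thinned to 1000 UMIs. In neutrophils the ratio was 2.12 (1.599 to 2.84) for Control against 3.76 (2.85 to 5.01) for IR, and the constitutive subunits had a median log2 ratio of -1.66, lower than any of the 3 immunoproteasome subunits. By single pairs, Psmb8 to Psmb5 was higher in IR with separate intervals in monocytes (2.25 and 2.58), T cells (2.47 and 3.21) and collagen-expressing cells (1.45 and 1.89). Psmb9 to Psmb6 was higher in monocytes (1.07 and 1.32) and neutrophils (1.68 and 5.62). It was lower in NK cells, at 1.02 (0.897 to 1.16) for Control against 0.787 (0.713 to 0.869) for IR. Psmb10 to Psmb7 overlapped in every gate.

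Nlrc5, the class I transactivator, was low in counts. It was highest in dendritic cells, at 93.7 CPM (78.5 to 111) for Control against 81.6 CPM (69.6 to 95.03) for IR, with a log2 ratio of -0.20 (-0.54 to 0.14). T cells held 63.3 and 63.4 CPM, monocytes 38.8 and 48.5 CPM, NK cells 28.6 and 26.9 CPM and collagen-expressing cells 29.7 and 42.6 CPM. All of these level intervals overlapped. The log2 ratio was 0.52 (0.07 to 0.98) in collagen-expressing cells and 0.32 (0.05 to 0.60) in monocytes, so these ratio intervals were positive throughout. In T cells (-0.34 to 0.34) and NK cells (-0.54 to 0.38) they spanned both signs. Only in macrophages were the level intervals separate, at 27.9 CPM (25.6 to 30.3) for Control against 38.2 CPM (33.1 to 43.9) for IR. The log2 ratio there was 0.45 (0.21 to 0.69). The dendritic cell interval stood apart from that of T cells, the next gate, in Control and overlapped it in IR. The neutrophil gate gave 2 and 20 UMIs for Control and IR, which allows log2 ratios from -0.38 to 4.81.

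In neutrophils the immunoproteasome subunits were lower in IR, as were 22.3% of all genes with enough UMIs there. Psmb8 was at 636 CPM (507 to 788) for Control against 331 CPM (278 to 391) for IR, Psmb9 at 318 CPM (229 to 430.0) for Control against 175 CPM (137 to 220.3) for IR and Psmb10 at 235 CPM (159.5 to 333) for Control against 88.8 CPM (62.5 to 122) for IR. Their log2 ratios were -0.94 (-1.34 to -0.53), -0.86 (-1.43 to -0.28) and -1.40 (-2.13 to -0.67). The 10 other core proteasome subunits with enough UMIs all had negative ratios as well, with a median of -0.99, and 3 of them were lower with separate intervals. The gate's makeup moved at the same time: the sum of its 7 defining markers was 37386 CPM for Control against 76335 CPM for IR. Their part in these ratios was not tested. When the totals were scaled by the trimmed mean of M values (TMM), which shifted neutrophil ratios by 0.70, the ratios of the 3 subunits were -0.24, -0.16 and -0.70, and none met both parts of the rule (1.5-fold and separate intervals). None met it either as the mean over cells in place of the sum, with stricter gates, or with cells thinned to 1000 UMIs. Over all settings the ratio ran from -1.40 to 0.38 for Psmb8, -1.73 to 0.72 for Psmb9 and -1.77 to -0.10 for Psmb10. Under TMM scaling H2-K1 (0.51), B2m (0.62), Tap1 (0.10), Tap2 (0.65) and Tapbp (0.57) turned from a negative to a positive ratio. Of the neutrophil ratios, those of 7 members changed sign in at least 1 setting tried, and H2-D1, Psmb10 and Nlrc5 did not. The Control gate held 31 cells with a median of 1831 UMIs.

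Basophils or mast cells had the lowest level of most members, for several of them on few UMIs. Where lowest, their interval overlapped that of the next gate for H2-K1, Tap1, Tap2 and Nlrc5 in Control. In IR it did so for Tap2, Tapbp and Psmb10. Psmb9 had no UMI in the 30 Control cells and 18 UMIs in IR. With fewer than 20 UMIs in all, no ratio is given. The TMM shift in this gate was 0.195, and it was at most 0.065 in the 6 gates other than this one and neutrophils.

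Among T cells, those with Cd8a or Cd8b1 and no Cd4 (193 Control and 108 IR cells) had 8 members higher in IR (all genes: 5.14%) and a median log2 ratio of 0.38. T cells with Cd4 and no Cd8 (67 and 38 cells) had 1 member higher (5.49%) and a median of 0.26, and T cells with Foxp3 (45 and 20 cells) had 0 higher (4.49%) and a median of 0.20. The smaller groups have wider intervals, so the counts cannot be set against each other. In the CD8 group H2-D1 was at 2210.1 and 2866 CPM (0.37), Psmb8 at 553 and 842 CPM (0.61) and Psmb10 at 134 and 210.0 CPM (0.65). Among dendritic cells, those led by Ccr7 and Fscn1, genes of mature migrating cells (130 and 152 cells), had 9 members higher (6.84%) and a median of 0.42. Dendritic cells led by Cd209a and Clec10a (33 and 36 cells) had 2 higher (2.47%) and a median of 0.21. The Ccr7 and Fscn1 group held 1139 and 1594 CPM of Psmb8 and 323 and 423 CPM of Tap1, against 709.7 and 973 CPM and 216 and 269.8 CPM in the Cd209a and Clec10a group.

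The other genes of the pathway were read as lists, each with the 2 highest and 2 lowest log2 ratios in monocytes. The nonclassical class I genes present to other receptors. Of those with enough UMIs, 7 of 10 were higher in monocytes (all genes: 8.24%) and 8 of 11 in macrophages (10.9%). In monocytes 0 were lower (8.77%). The list's median log2 ratio was 0.80 in monocytes and 0.89 in macrophages. In monocytes H2-Q10 (log2 ratio 2.98 on 2 and 39 UMIs, interval 1.03 to 6.08) and H2-T24 (2.32) had the highest ratios on few UMIs, and H2-M3 (0.19) and Mr1 (0.28) the lowest. H2-T22, chosen after its values were seen, was higher at 103 and 216 CPM in monocytes (1.07), 79.4 and 186 CPM in macrophages (1.23) and 132 and 285 CPM in collagen-expressing cells (1.12). In NK cells the list's median was -0.17, and H2-Q7, also chosen so, was lower at 669 and 592 CPM. These genes share sequence with each other and with the heavy chains, so their counts carry the same uncertainty.

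Of the endoplasmic reticulum helpers that fold, load or trim, 0 of 5 were higher in monocytes, near the share of all genes (8.24%). There 3 were lower (all genes: 8.77%), and the median was -0.26. Those lower were the lectin chaperone genes Calr (596 and 496 CPM) and Canx (286 and 213 CPM) and the trimming peptidase Erap1 (40.6 and 27.8 CPM). Tapbpl (0.38) and Pdia3 (0.09) had the highest ratios, with overlapping levels. In macrophages 0 were higher (10.9%) and 2 were lower (14.9%), with a median of -0.16. The list went the other way in lymphocytes: 2 of 5 were higher in T cells (5.92%) and 2 of 5 in NK cells (5.32%), and 0 were lower in either.

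Of the 5 proteasome activator and assembly genes in monocytes 1 was higher (all genes: 8.24%), Psme1 (0.14), and 1 was lower (8.77%), Psme3 (-0.36). Psme2 (0.08) and Psme4 (-0.34) overlapped. In dendritic cells Psme1 and Psme2, which encode the interferon-induced activator and were chosen here after their values were seen, were higher at 1275 and 1488 CPM and at 1415 and 2006 CPM. None of the constitutive catalytic subunits was separate in monocytes: Psmb5 had a log2 ratio of 0.00, Psmb6 of 0.02 and Psmb7 of 0.06. Their medians were 0.12 in macrophages, 0.16 in T cells, 0.12 in NK cells and 0.34 in collagen-expressing cells. Of the 11 other core subunits 1 was higher in monocytes (all genes: 8.24%), Psma5 (0.23), next to Psmb2 (0.15). The lowest were Psmb4 (-0.13) and Psma4 (-0.09), both overlapping.

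Of the regulators in monocytes, Irf1 (189 and 228 CPM), an interferon-induced transcription factor, was higher, Ciita (45.2 and 26.7 CPM), the class II transactivator, was lower, and Rfxank (-0.33) overlapped. The comparison list of interferon-stimulated genes, which holds no member, had 13 of 14 genes higher in monocytes (all genes: 8.24%). Ifit3 (3.14) and Oasl1 (2.73) had its highest log2 ratios and Gbp2 (-0.07) and Gbp5 (0.44) its lowest. Its median was 1.97 in monocytes, 2.21 in macrophages, 3.07 in T cells, 1.11 in NK cells, 2.05 in dendritic cells and 2.65 in collagen-expressing cells. The members' medians were below these in each of the 6 gates.

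**Figure D4:**
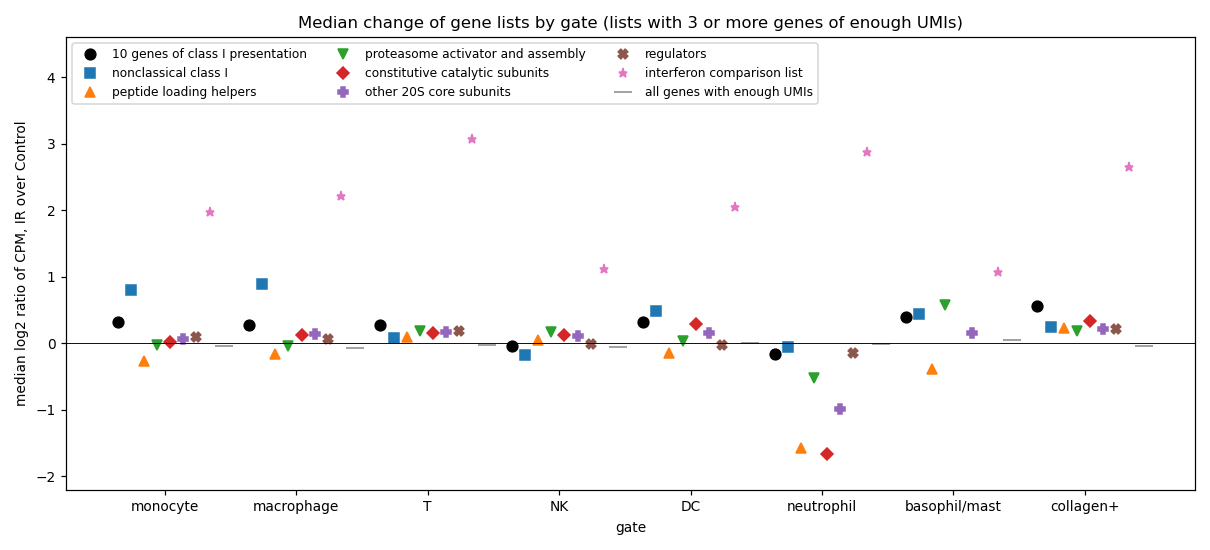
Median log2 ratio of IR over Control of the members, of each pathway list with at least 3 genes of enough UMIs and of all genes, by gate (1 symbol a list, medians with no error bar). The interferon list lies highest in each gate, and the members lie near 0 in NK cells and at 0.56 in collagen-expressing cells.

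The class I sum was also read per cell, with each cell thinned to 1000 UMIs so that depth was equal. The mean of H2-K1, H2-D1 and B2m together was 7.71 UMIs per cell in Control and 10.02 in IR monocytes, 7.20 and 10.75 in macrophages, 11.2 and 12.8 in T cells, 10.1 and 11.15 in NK cells, where the sum over cells gave a lower H2-K1 level in IR, and 7.73 and 10.6 in collagen-expressing cells. Cells were then split by their UMIs of the interferon list. Monocytes with none of these UMIs held 6.83 (6.52 to 7.15) class I UMIs in Control (264 cells) and 8.42 (8.02 to 8.83) in IR (203 cells), and macrophages with none held 6.59 (6.45 to 6.73) and 8.89 (8.44 to 9.36). NK cells with none held 9.82 (9.44 to 10.2) and 10.4 (10.04 to 10.8), with overlapping intervals. T cells with none held 10.5 (10.2 to 10.9) and 11.98 (11.4 to 12.6), with separate intervals, dendritic cells 10.1 (9.53 to 10.7) and 11.5 (10.7 to 12.4), and collagen-expressing cells 7.08 (6.44 to 7.77) and 8.47 (7.55 to 9.48), both overlapping. Within cells without a detected interferon UMI the class I sum was thus higher in IR in the monocyte, macrophage and T cell gates. At 1000 UMIs a cell with no such UMI can still express these genes.

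**Figure D5:**
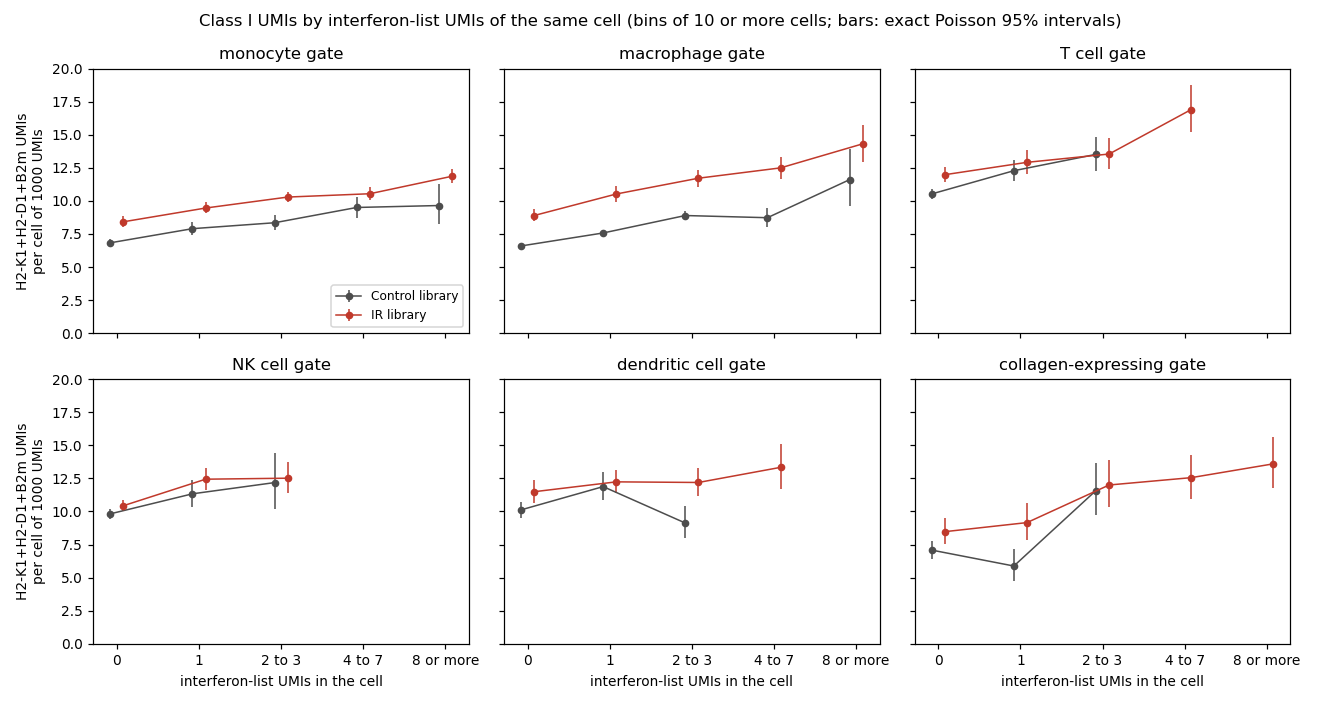
Mean UMIs of H2-K1, H2-D1 and B2m together per cell, by the number of UMIs from the interferon list in that cell, in Control and IR for 6 gates, with each cell thinned to 1000 UMIs; bars are exact 95% intervals from counting error, and bins hold at least 10 cells. Macrophages, monocytes and T cells with no interferon UMI lie higher in IR, and NK cells lie close together.

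The genes whose pattern was most like the members' were found over the 16 points of gate and library, by Pearson's correlation with the mean of the members' log2 levels (CPM plus 10, each member scaled to the same spread), among 5002 genes with at least 20 CPM in most points. Among the nearest were Rab22a (0.902), Psme2 (0.888), Kcmf1 (0.872), H2-T22 (0.868), Ifi35 (0.864), Gbp4 (0.860), Polr3c (0.859), Stx6 (0.857) and Arpp19 (0.854). Of the members, Psmb8 was nearest to the members' mean (0.956) and H2-D1 farthest (0.408). The closest pair was Psmb8 and Psmb9 (0.913), and the least alike Psmb10 and H2-D1 (-0.10). The points are 8 gates from the same 2 libraries and share their depth, so these values only describe them.

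The share of free RNA in the gates was small. Genes that a gate should lack (T cell markers in phagocytes, C1q genes in the other gates) were found at 0.152% to 4.46% of their level in barcodes with 1 to 100 UMIs, taken as empty droplets. When this share of the free RNA was taken from each gate, the median log2 ratio was 0.32 in monocytes, 0.28 in macrophages, -0.04 in NK cells and 0.56 in collagen-expressing cells.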

How the data were processed

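Per the labels and the study's methods, the authors aligned reads to mm10 (GENCODE vM23/Ensembl 98 gene set) with Cell Ranger (6.0.1 in the submitters' processing notes; the deposited matrix header names version 4) and deposited the UMI counts of each barcode without normalization. Library totals were 48593879 (Control) and 42406461 (IR) UMIs over 1067746 and 990007 barcodes. The value columns used were the counts only.

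Cells were barcodes with at least 1000 UMIs and at most 25% mitochondrial UMIs. Phagocytes were admitted by macrophage markers plus Csf1r, Fcgr1 and Ms4a6c. The larger of their monocyte and macrophage marker sums then set the gate, so monocyte markers alone admitted no cell. A cell entered a gate with at least 3 marker UMIs and marker CPM above 500 (phagocytes 1000, neutrophils 5000), with a 2-fold margin for lymphocytes and dendritic cells. These limits were set after looking at marker totals. Cells with markers of several classes (587 and 504) or of none (268 and 223) were left out, and B cells (16 and 6) and plasmacytoid dendritic cells (5 and 3) were too few. No doublet caller was used, except in an alternative (Scrublet, top 6% removed).

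UMIs were summed per gate and library and scaled to CPM. Levels carry exact Poisson 95% intervals, ratios exact conditional ones. Genes with at least 20 UMIs over both libraries were compared. Higher or lower means separate intervals, and the stricter calls counted among the alternatives also needed at least 1.5-fold. Shares and ratios of 2 genes use Clopper-Pearson intervals. PCR and capture errors, and differences between animals, are not covered. TMM factors came from edgeR 4.0.16 (R 4.3.3). Other tools were Python 3.11.15, numpy 2.4.6, scipy 1.17.1, pandas 2.3.3, scanpy 1.11.5 and matplotlib 3.10.9. Positions are from GENCODE vM21 (GRCm38), and promoter sequences from RefSeq (GRCm38.p6).

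All 10 members were named in every gate where they had enough UMIs. Of each pathway list, the counts and median were taken, and the genes with the 2 highest and 2 lowest ratios in monocytes were named. For the pattern comparison the 10 genes with the highest correlation were taken. A gene that these rules would name is not reported here. The members and lists were chosen with earlier results of these data known. In all, 15 alternatives were tried. They were UMI and mitochondrial limits, Scrublet, scaling, mean over cells, free RNA, stricter gates, pseudocount, filter, fold and thinning. A further one left Ly6c2, Plac8 and Ms4a4c out of the monocyte markers and is part of that count.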

Additional observations from a re-analysis of the deposited data

Results flagged for a closer look

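The ratios of 4 members had opposite signs in different gates, each with intervals of the levels that did not overlap, and the differences between gates were not tested. H2-K1 had a log2 ratio of IR over Control of -0.093 in NK cells and 0.49 in macrophages. In neutrophils and collagen-expressing cells, Psmb8 had -0.94 and 0.65, Psmb9 -0.86 and 0.51, and Psmb10 -1.40 and 0.58. The neutrophil values rest on 31 Control cells, and the neutrophil marker sum differed between the libraries as given above. Over the settings tried, the NK cell ratio of H2-K1 ran from -0.15 to 0.12. The neutrophil ratios ran from -1.40 to 0.38 for Psmb8, -1.73 to 0.72 for Psmb9 and -1.77 to -0.10 for Psmb10, so only Psmb10 kept its sign.

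Barcodes with 1 to 100 UMIs, used only to estimate free RNA, carried members at different levels as well. There were 885893 such barcodes in Control and 805578 in IR, with 5346655 and 3992773 UMIs. H2-K1 was at 1802 and 2388 CPM (log2 ratio 0.41), H2-D1 at 1476 and 2355 CPM (0.67) and B2m at 3691 and 4285 CPM (0.22). The log2 ratio was 0.47 for Tap1, 0.43 for Tap2, 0.17 for Tapbp, 0.38 for Psmb8 and 0.16 for Psmb9. For Psmb10 (0.04) and Nlrc5 (0.20) the intervals overlapped. H2-D1 thus had the highest ratio of the members in these barcodes, as it did in macrophages.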

How the results depend on the processing

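Of 130 recomputed values, some could not move by design. All members passed the UMI filter in the 7 larger gates, so dropping it changed no median. Leaving interferon-induced genes out of the monocyte markers changed the monocyte and macrophage gates only. Of the 130, 115 stayed within the median counting interval of the members or within 1.5 times the count they were set against, and 15 moved. The median of the members in neutrophils, -0.16 in the report, turned positive in 4 of them, at 0.54 with TMM scaling, 0.14 as the mean over cells, 0.29 with stricter gates and 0.14 with cells thinned to 1000 UMIs, the last chosen after seeing the data. In macrophages it was 0.44 when Ly6c2, Plac8 and Ms4a4c were left out of the monocyte markers and 0.47 with thinned cells. By the 1.5-fold rule, the 5 calls of higher members in the 7 larger gates were 9 with TMM, 8 as the mean over cells, 0 at 2-fold and 28 at the lowest fold limit tried. The 3 calls of lower members were 0 with TMM, as the mean over cells, with stricter gates and with thinned cells, and 1 at 2-fold; the cause was not tested. The medians ranged from 0.20 to 0.38 in monocytes, 0.20 to 0.47 in macrophages, 0.22 to 0.31 in T cells, -0.07 to 0.16 in NK cells, 0.24 to 0.37 in dendritic cells, -0.56 to 0.54 in neutrophils and 0.54 to 0.62 in collagen-expressing cells. Ratios that changed sign in at least 1 setting were those of 7 members in neutrophils, 4 in NK cells, 2 in T cells, 1 each in monocytes, macrophages and dendritic cells, and 0 in collagen-expressing cells. At 2000 UMIs the Control neutrophil gate held 7 cells. No paired analysis was possible because each group has 1 library.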

Other observations

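Few gated cells lacked class I RNA. With cells thinned to 1000 UMIs, 0.471% (exact 95% interval 0.226 to 0.865) of Control and 0.206% (0.00522 to 1.14) of IR macrophages had no UMI of H2-K1, H2-D1 or B2m. The immunoproteasome genes were sparser. Dendritic cells had a mean of 1.74 UMIs of Psmb8, Psmb9 and Psmb10 together in Control and 2.46 in IR, and no such UMI was seen in 25.7% (19.4 to 32.9) and 10.5% (6.51 to 15.7) of these cells. In macrophages the mean was 0.851 and 0.973, and the share without such a UMI 46.4% (44.3 to 48.5) and 43.5% (39.0 to 48.0). The mean was 1.09 and 1.31 in monocytes, 0.978 and 1.27 in T cells and 0.636 and 0.841 in NK cells. Collagen-expressing cells had 0.887 and 0.903, means on few UMIs given without an interval. Their share without such a UMI was 50.5% (40.2 to 60.8) and 40.8% (31.2 to 50.9).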
